A study of Homo sapiens with 2 samples.

Results

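The cells described here are the NKX2-5 positive cardiomyocytes of a human pacemaker culture. They were 283 cells, 5.55% of 5095 gated cardiomyocytes (exact 95% binomial interval 4.94% to 6.22%, which covers counting error only), out of 14829 cell barcodes in all. The culture came from the embryonic stem cell line HES2, which had been directed towards cells like those of the sinoatrial node (SANLPC in the labels). The cells were dissociated, labelled with a barcoded antibody against CD34, sorted as live singlets and read as a droplet RNA library and an antibody-tag library of the same barcodes. No group in the series differs by genotype, treatment or time, so every comparison is between cells of 1 culture. With 1 culture there is no replicate and no p-value, and cells are not counted as replicates.

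NKX2-5 is a homeodomain transcription factor of the early heart. In the working myocardium of atria and ventricles it takes part in turning on contractile, conduction and natriuretic peptide genes. The head of the sinoatrial node is known for low NKX2-5 and for the transcription factors SHOX2, TBX3, TBX18 and ISL1 and the pacemaker channel HCN4.

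A barcode was a gated cardiomyocyte where it held at least 1000 genes, at most 25% mitochondrial unique molecular identifiers (UMIs), at most 35000 RNA UMIs, at least 2000 UMIs per 1000000 (CPM) of the troponin TNNT2, and at most 4 UMIs in total of the epithelial genes VTCN1, GATA3, CLDN4 and WNT6. Positive cells had at least 3 NKX2-5 UMIs. The gates left 12119 barcodes by genes and mitochondrial share, 11211 by depth, 5516 by TNNT2 and 5095 by the epithelial genes. Of these, 4385 (86.1%) had 0 NKX2-5 UMIs and are called zero cells below, and 427 (8.38%) had 1 or 2 and stayed out of the comparison. The positive cells held a median of 5 NKX2-5 UMIs, from 3 to 17, and NKX2-5 reached 318 CPM in their summed counts. Since RNA counts chose the cells, the RNA values below are descriptions with no test, and the antibody tag is the only readout the choice did not use.

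Median depth and quality lay close between the groups. The median was 16785 RNA UMIs per positive cell (5752 to 32504) and 15685 per zero cell (1488 to 34949). The median mitochondrial share was 12.9% against 12.1%. The zero cells had a shallow tail, with 276 cells under 5000 RNA UMIs against 0 positive cells. Scrublet called 9 positive cells (3.18%) and 143 zero cells (3.26%) as doublets, which were kept. Cells with at least 3 UMIs of the cell cycle genes made up 56.5% and 53.8%.

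The label was checked against its markers and against other cell types. Cardiomyocyte markers (TNNT2, MYH6, ACTN2, TNNC1, MYL7, TTN) summed to 48558 CPM in positive cells and 40052 in zero cells. The 6 working markers NKX2-5, NPPA, GJA5, KCNA5, SLN and NPPB summed to 2569 against 397 CPM, and the 6 pacemaker markers SHOX2, TBX3, TBX18, ISL1, HCN4 and BMP4 to 811 against 1288 CPM. NKX2-5 itself chose the cells, and 1 cell held 59 of the 76 SLN UMIs. The remaining 4 working markers summed to 2236 against 389 CPM, of which NPPA alone made up 2112 and 356. These sums describe the label and are no independent support for it. Pacemaker transcripts were still present. The ventricular light chain MYL2 had 0 UMIs in the positive cells and 15 in zero cells (0.216 CPM), too few to compare. Of the 8 genes of the ventricular list, 4 reached 10 CPM in either group. MYL3 was higher and none was lower, with a median log2 ratio of 0.36. Markers of other types were summed in the same way. The 6 fibroblast genes gave 494 against 471 CPM, the 6 epicardial genes 10.6 against 10.4, and the 6 epithelial genes 121 against 144. Endothelial genes gave 3.14 against 5.02 CPM, with PECAM1, CDH5 and PLVAP at 0 in positive cells, and all 6 blood genes were at 0 there. The smooth muscle list stood apart, at 1886 against 3785 CPM. Its part in the differences below was not tested.

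For sequence context, the bases upstream of RefSeq gene starts (GRCh38.p14) (the 250 bases directly before the annotated start) were read for the genes with the highest ratios between positive and zero cells, of which 10 of 12 had an entry. The letters searched were TNAAGTG, a binding element of NKX2-5, and GGTGTGA, a T-box element, each on both strands. TNAAGTG was present in 8.84% of 27305 such promoters and GGTGTGA in 2.72%, but neither was in those 10. The shorter CAAGTG, which can overlap TNAAGTG and was chosen after the sequences had been seen, was in 9.59% of all promoters, in 6.67% of the 7275 promoters of genes at 10 CPM or more, and in 3 of the 10. These were NPPA, with 2 matches, ALPK2 and LRRC49. Of the 8 promoters found for the 12 genes with the lowest ratios, 1 (ALDH1A1) held it too. The 3 sequences are shown because they hold the matches, and LRRC10 because it had one of the highest ratios with no match, all 5′ to 3′ along the gene with CAAGTG or its reverse complement in capitals. A match describes letters and shows no binding. The windows are chr1:11847784-11848033 (minus strand) for NPPA, chr18:58629092-58629341 (minus) for ALPK2, chr15:70853128-70853377 (plus) for LRRC49 and chr12:69610908-69611157 (minus) for LRRC10.
NPPA: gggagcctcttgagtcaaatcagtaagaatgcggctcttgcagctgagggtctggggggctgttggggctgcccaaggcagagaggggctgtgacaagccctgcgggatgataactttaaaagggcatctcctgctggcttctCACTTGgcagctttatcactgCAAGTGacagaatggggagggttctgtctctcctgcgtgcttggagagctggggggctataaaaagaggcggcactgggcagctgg
ALPK2: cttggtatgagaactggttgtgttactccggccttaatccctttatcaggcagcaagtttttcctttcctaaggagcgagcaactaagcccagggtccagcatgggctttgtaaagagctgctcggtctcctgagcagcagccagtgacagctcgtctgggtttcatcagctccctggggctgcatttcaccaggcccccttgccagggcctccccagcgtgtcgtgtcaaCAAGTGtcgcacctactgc
LRRC49: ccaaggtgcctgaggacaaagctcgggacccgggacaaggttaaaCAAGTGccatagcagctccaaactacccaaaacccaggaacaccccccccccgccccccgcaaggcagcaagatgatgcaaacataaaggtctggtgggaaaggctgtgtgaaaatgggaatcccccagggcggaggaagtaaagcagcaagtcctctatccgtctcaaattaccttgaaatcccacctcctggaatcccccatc
LRRC10: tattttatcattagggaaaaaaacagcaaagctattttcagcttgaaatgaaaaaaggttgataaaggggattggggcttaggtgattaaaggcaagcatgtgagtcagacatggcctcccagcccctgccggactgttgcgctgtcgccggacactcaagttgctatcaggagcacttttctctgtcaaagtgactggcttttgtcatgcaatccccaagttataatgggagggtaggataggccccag

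The first question was which genes separate positive from zero cells. Positive cells held more of a group of working-muscle genes, led by the natriuretic peptide precursor NPPA and its processing enzyme CORIN, the Z-disc genes LRRC10 and XIRP1, the thin-filament elongation factor LMOD2 and the oxygen store MB. They held less of the sinus and venous pole factor TBX18, of ALDH1A1 and of MYH11, and the same level of the pacemaker channel HCN4. UMIs were summed over the cells of each group and scaled to CPM, and a gene was called higher at a ratio of at least 1.5 and lower at 0.667 or less, with at least 10 CPM in the higher group. Of 8998 genes at that level, 313 (3.48%) were higher and 328 (3.65%) lower, with a median log2 ratio of -0.02. Thinning every cell to 5000 UMIs gave 532 and 629 genes, with more counting noise per gene.

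Peptide hormone genes and their processing enzymes are given first. NPPA was at a median of 9 UMIs per positive cell (0 to 620) and 1 per zero cell (0 to 434), so the ranges overlapped widely. In summed counts it was at 2112 CPM in positive cells and 356 in zero cells, a ratio of 5.93 (exact 95% interval 5.79 to 6.06, counting error only). The highest positive cell held 620 of the 10748 NPPA UMIs, and without that cell the ratio was 5.58, below this interval. CORIN, a membrane protease that cuts the NPPA precursor, was at 30.8 against 2.52 CPM, 12.2 times higher (9.81 to 15.3). Its UMIs were sparse: the highest positive cell had 13, and 77.0% of positive cells had none. PAM, which amidates peptide hormones, was at 898 against 396 CPM, and the vasodilator peptide ADM at 173 against 98.7. Of the 8 genes of this list, 5 were measured at the level and 4 were higher, all but the protease FURIN (31.0 against 23.4 CPM). NPPB stayed under 10 CPM, with 45 UMIs in positive cells (8.84 against 3.17 CPM).

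Sarcomere genes differed by compartment. In the Z-disc and costamere list, 13 of 14 genes were measured, 7 were higher and 1 was lower, with a median log2 ratio of 0.67. LRRC10, a cardiac leucine-rich repeat protein, had a median of 1 UMI per positive cell (0 to 18) and 0 per zero cell (0 to 7), and was at 74.1 against 6.19 CPM, 11.97 times higher (10.4 to 13.8). The actin-binding XIRP1 (135 against 35.3 CPM) and XIRP2 (19.1 against 4.52), CSRP3 (1120 against 557), the titin cap TCAP (631 against 350), LDB3 (484 against 273) and NEBL (735 against 463) followed. The intermediate filament DES was lower, at 1282 against 2053 CPM. By contrast, only MYL3 of the 9 measured thick-filament genes was higher, at 1081 against 395 CPM (ratio 2.74, 2.66 to 2.82), and MYH6, TTN and MYBPC3 lay within 1.5-fold.

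In the thin filament, 2 of 11 measured genes were higher and 2 lower. LMOD2, which elongates cardiac actin filaments, had a median of 2 UMIs per positive cell (0 to 38) and 0 per zero cell (0 to 19), and was at 199 against 27.4 CPM, 7.25 times higher (6.71 to 7.82). LMOD1 (33.8 against 51.9 CPM) and the smooth muscle actin ACTA2 (1284 against 2352) were lower. ACTA1 was at 16.1 against 6.29 CPM, but 1 cell held 44 of its 82 UMIs, and without that cell its ratio was 1.19.

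Oxygen and energy genes did not move as a list: 2 of 13 measured were higher and none lower, with a median log2 ratio of 0.15. The 2 were MB, the oxygen-binding myoglobin, with a median of 13 UMIs per positive cell (0 to 131) and 2 per zero cell (0 to 79), at 1135 against 297 CPM, a ratio of 3.83 (3.72 to 3.94), and COX6A2, the heart and muscle form of a cytochrome oxidase subunit, at 74.5 against 18.1 CPM. None of 10 nuclear respiratory-chain genes crossed 1.5-fold.

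Among ion channels, 14 of 19 were measured, 4 were higher and 1 lower. Among the higher ones, the atrial potassium channel KCNA5 was at 41.3 against 12.6 CPM (ratio 3.28, 2.81 to 3.82), the L-type calcium channel CACNA1C at 22.8 against 6.997, and KCNQ1 at 57.8 against 34.4. HCN4, the main pacemaker channel, was at 103 and 102 CPM, a ratio of 1.01 (0.922 to 1.10). GJA5, the fast-conducting connexin of atrium and conduction system, was at 74.1 against 16.7 CPM (ratio 4.45, 3.95 to 5), and GJC1, the connexin of slow-conducting nodal cells, at 92.3 against 104. GJA5 was uneven among zero cells, at 98.3 CPM in those of cluster 1 (clusters are described below). In calcium handling, CASQ2 was higher (17.7 against 6.74 CPM). SLN was at 14.9 against 8.62 CPM, but 1 cell held 59 of its 76 UMIs, and without that cell its ratio was 0.387.

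The working myocardium list as a whole had 9 of 12 genes measured, 7 higher and none lower, with a median log2 ratio of 1.18. The higher genes included NPPA, GJA5, KCNA5, PAM and ADM, and SLN with the limit just given. HOPX (13.9 against 17.3 CPM) and SMPX (510 against 370) lay within 1.5-fold. This list and the others were chosen with results of these cells known, so their direction is no independent evidence. Of 12 genes known to depend on Nkx2-5 in the mouse heart, 8 were measured, 3 were higher (NPPA, GJA5 and the muscle ankyrin repeat gene ANKRD1) and none lower, with a median of 0.31. In the plot of gene lists the working myocardium and peptide hormone medians lie farthest to the right, both at 1.18. These lists overlap, with NPPA, PAM and ADM among the higher genes of both.

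**Figure D1:**
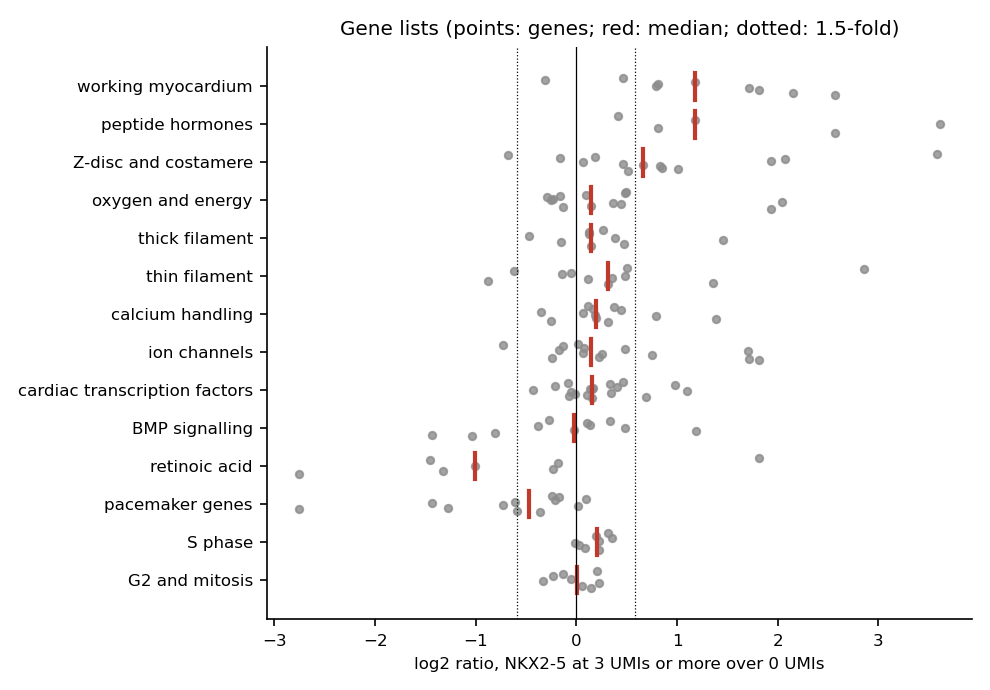
Each grey point is 1 gene at 10 CPM or more, placed by its log2 ratio of positive over zero cells, with the red bar at the list median and dotted lines at 1.5-fold. The working myocardium median lies at 1.18 and the pacemaker median at -0.48, and the S phase and G2 lists sit within the dotted lines.

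Pacemaker genes were lower or level and none was higher. All 12 of the list were measured and 6 were lower, with a median log2 ratio of -0.48. TBX18, a T-box factor of the sinus node head, had a median of 0 UMIs per positive cell (0 to 3) and 1 per zero cell (0 to 13), and was at 14.9 against 101 CPM, a ratio of 0.148 (0.117 to 0.186). ISL1 was at 31.6 against 76.4 CPM, BMP4 at 90.0 against 244, and the calcium sensor VSNL1 at 178 against 271. TBX3, which represses working genes in the node, was at 139 against 208 CPM, a ratio of 0.665 (0.616 to 0.717) that lies at the limit of the call and left it in 9 alternatives. SHOX2, the factor that opposes NKX2-5 in the node, was at 434 against 558 CPM, a ratio of 0.778 (0.745 to 0.812) and within 1.5-fold. Positive cells therefore held SHOX2 at a median of 7 UMIs per cell (0 to 35) beside NKX2-5, and zero cells at 8 (0 to 50).

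Other cardiac transcription factors were mostly level. Of 18 measured, 3 were higher and none lower, with a median of 0.16. Among the higher ones, TBX20 was at 21.2 against 9.92 CPM and GATA5 at 32.8 against 20.3. GATA4 (102 against 91.5 CPM), TBX5 (154 against 160) and MEF2C (167 against 169) lay within 1.5-fold. Of the retinoic acid list, 7 of 11 genes were measured, 4 were lower and 1 was higher, with a median of -1.01. ALDH1A1 (35.4 against 238 CPM) and ALDH1A2 (5.11 against 12.8), which make retinoic acid, and the reductase DHRS3 (6.29 against 17.2) were among the lower genes, and the retinol uptake receptor STRA6 was higher (15.3 against 4.36). In the BMP list, 11 were measured: BMP2 (29.9 against 61.4 CPM), BMP4 and BMP5 (161 against 281) were lower and BMP7 higher (109 against 47.9).

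The 12 highest and 12 lowest ratios among genes at 20 CPM or more were named by rule. Beyond those described, the highest held USH1C (27.7 against 2.39 CPM), LINC01844, the secreted protease ADAMTS8 (71.3 against 8.22), LRRC49, the phosphodiesterase PDE8B, the kinase ALPK2 and the transglutaminase TGM2 (92.2 against 19.6). Their ratios ran from 12.2 for CORIN to 4.45 for GJA5. The lowest were FOXC1 (3.93 against 30.5 CPM, ratio 0.129), PRKG1-AS1, BASP1 (33.8 against 248), TBX18, ALDH1A1, the smooth muscle myosin MYH11 (130 against 787), AARD, LINC01697, the Wnt inhibitor DKK1, NECAB1, WIPF3 and the chemokine CXCL12 (56.0 against 244, ratio 0.229). The antisense PRKG1-AS1 cannot be told apart from reads of its partner where the counting ignores strand, and the setting is not given in the sources used here. Of the 6 smooth muscle markers, 3 were called lower: MYH11, ACTA2 and TAGLN (187 against 351 CPM). CNN1 (259 against 278 CPM) lay within 1.5-fold, as did RGS5, which was above its zero-cell level (20.6 against 15.8).

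**Figure D2:**
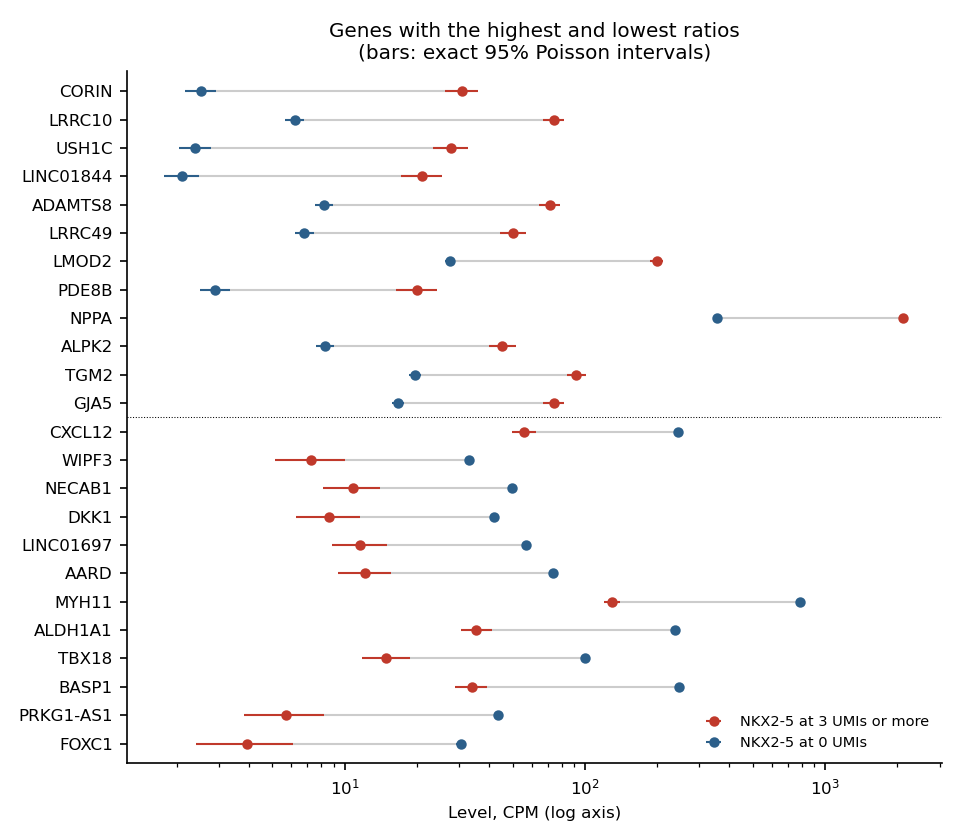
Levels in CPM on a log axis for the 12 highest and 12 lowest ratios, with red points for cells with at least 3 NKX2-5 UMIs and blue points for zero cells, and bars for exact 95% Poisson intervals. CORIN (30.8 against 2.52 CPM) is at the top and FOXC1 (3.93 against 30.5) at the bottom.

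Shares of cells with a UMI were compared after thinning each cell to 5000 UMIs, beside epithelial cells of the culture, which should lack these muscle genes. The unthinned medians were 16785, 15685 and 17530 RNA UMIs for positive, zero and epithelial cells, and 0, 276 and 87 cells were too shallow. NPPA was seen in 66.8% of positive, 48.3% of zero and 6.31% of epithelial cells (75.6%, 65.9% and 17.5% unthinned). LRRC10 was seen in 30.04%, 2.92% and 0.141% (50.9%, 7.23% and 0.600% unthinned), and TBX18 in 6.71%, 36.7% and 1.46% (18.7%, 69.7% and 5.31%). SHOX2 was seen in 73.5%, 89.9% and 6.13% (86.9%, 96.5% and 15.5%). These shares followed the order of the CPM. HCN4 was at 37.8% in both cardiomyocyte groups and 2.62% in epithelial cells (74.9%, 69.3% and 8.22% unthinned).

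The 5 other markers did not mark every positive cell. After thinning, 19 of 283 positive cells had none of NPPA, LMOD2, MB, CORIN and LRRC10, 92 had 3, 36 had 4 and 9 had 5. Of 4109 zero cells deep enough, 937 had none, 219 had 3, 7 had 4 and 0 had 5. SHOX2 and NPPA were both seen in 47.0% of positive and 43.5% of zero cells, and NPPA without SHOX2 in 19.8% and 4.79%.

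The next question was how the values change with the NKX2-5 count. The bins differ in cluster makeup, since the share of cells in cluster 4, described below, was 0.0912%, 3.18%, 13.2%, 30.3%, 34.3%, 46.3% and 50% from the lowest to the highest bin. The part of cluster makeup in the values by bin was not tested. Cells with 0, 1, 2, 3, 4 to 5, 6 to 9 and 10 or more NKX2-5 UMIs numbered 4385, 283, 144, 66, 105, 82 and 30, with median depths from 15013 to 17481. NPPA was at 356, 314, 630, 1125, 1804, 2555 and 3805 CPM in these bins, and MB at 297, 354, 592, 740, 1073, 1282 and 1697. NPPA was therefore not higher at 1 UMI than at 0, and both genes were higher in each later bin. LRRC10 stepped earlier, with 6.19 CPM at 0, 23.3 at 1, 42.0 at 2 and 97.8 at 10 or more. CORIN reached 75.1 CPM (54.3 to 101) in the top bin, from 30.5 in the bin before it.

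TBX18 and ALDH1A1 were at their highest in zero cells and at their lowest in the top bin. TBX18 was at 101, 64.1, 30.8, 25.8, 14.3, 11.0 and 6.99 CPM, and ALDH1A1 went from 238 in zero cells to 6.99 in the top bin. SHOX2 was at 558 CPM at 0 UMIs, 615 at 1, 522 at 3 and 274 (233 to 321) at 10 or more. HCN4 stayed between 83.8 and 116 CPM in all 7 bins, with overlapping intervals.

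Around the threshold, cells just inside (3 UMIs, n = 66) and just outside (2 UMIs, n = 144) had alike values for several genes. LRRC10 was at 47.9 and 42.0 CPM, GJA5 at 51.6 and 52.0, TBX18 at 25.8 and 30.8 and HCN4 at 116 and 109. NPPA was at 1125 and 630 CPM, while LMOD2 was lower just inside, at 111 against 161. The cells left out with 1 or 2 UMIs thus carry part of the pattern.

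**Figure D3:**
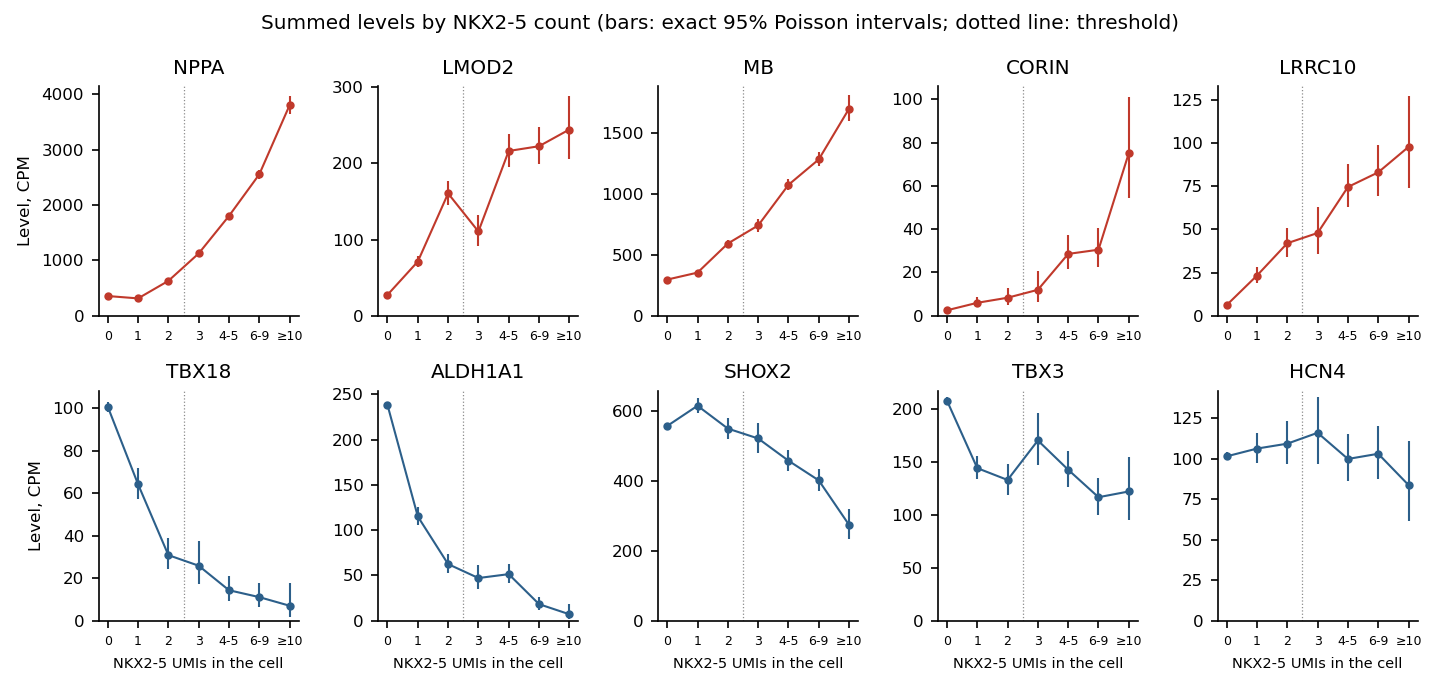
Summed levels in CPM of 10 genes (linear axes from 0) in cells grouped by NKX2-5 UMIs, with exact 95% Poisson intervals and a dotted line at the threshold of 3 UMIs. NPPA goes from 356 to 3805 CPM and TBX18 from 101 CPM in zero cells to its lowest level in the top bin, while HCN4 stays between 83.8 and 116.

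The CD34 antibody tag was read separately from the transcripts. CD34 is a surface glycoprotein of progenitor and endothelial cells. Positive cells had a median of 54 tag UMIs (exact 95% interval of the median 49 to 57; quartiles 36 and 86.5), and zero cells 93 (88 to 98; quartiles 47 and 319). Epithelial cells, as background, had a median of 39. Their 99th percentile, 232 tag UMIs, was passed by 19 positive cells, 6.71% (4.09% to 10.3%), and by 30.1% of zero cells (28.7% to 31.5%). The share of epithelial cells over it, 1.02%, follows from setting the level on them. Scaled to RNA depth the medians were 32.0 and 74.0 tag UMIs per 10000 RNA UMIs. The median did not fall stepwise with NKX2-5: it was 93 at 0 UMIs, 57 at 1, 49.5 at 2, 54 at 3 and 59.5 at 10 or more. The CD34 transcript, sparse in all groups, had 6 UMIs in positive cells (1.18 CPM) and 608 in zero cells (8.75 CPM), a ratio of 0.135 (0.0492 to 0.295).

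Clusters of the gated cardiomyocytes, made without NKX2-5 and CD34, showed how the tag difference was placed. In the 8 clusters with at least 10 cells of each group, the positive median was lower in 6. It was 59 against 373 in cluster 3, 61 against 189 in cluster 9, 86 against 200 in cluster 10, 57 against 104 in cluster 8 and 35 against 76 in cluster 13. In clusters 0, 1 and 12, where zero cells had 52, 52 and 54, positive cells had 57, 48 and 73. When zero cells were weighted to the cluster makeup of the positive cells, the medians were 54 and 54. That weighting rests on the 4 zero cells of cluster 4, and without that cluster the weighted medians were 59 and 88. With the clusters from 1000 variable genes the weighted medians were 54 and 73.

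**Figure D4:**
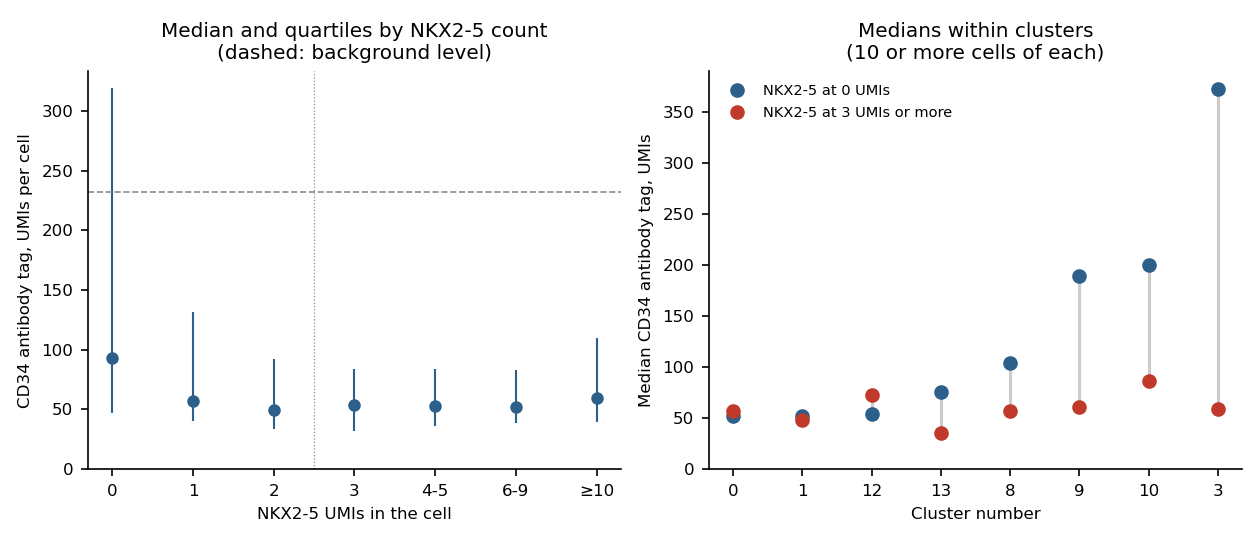
Left, median and quartiles of CD34 antibody-tag UMIs per cell by NKX2-5 count, with the background level of 232 dashed. Right, medians of positive (red) and zero cells (blue) in the 8 clusters with at least 10 of each, ordered by the zero-cell median; the gap is widest in cluster 3 (59 against 373).

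The positive cells were not 1 cluster. Of 16 clusters, cluster 4 held 109 of them, 38.5% (32.8% to 44.5%), and 77.3% of its 141 cells were positive, with 4 zero cells. The other 174 lay in 13 further clusters, from 27 of 485 cells in cluster 8 to 2 of 164 in cluster 5. Clusters 6 and 15, with median depths of 2283 and 2846 RNA UMIs, held none. Cluster 7 held 7 positive cells, and 88.1% of its cells were called doublets. The leading genes of cluster 4 included CORIN, NPPA, LRRC10, LRRC49, LMOD2, ADAMTS8, ALPK2, COX6A2 and GJA5, which is a description since those genes took part in the clustering. Clustering on 1000 variable genes gave a leading cluster of 172 cells, 97 of them positive (56.4%) and 33 with 0 NKX2-5 UMIs.

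Positive cells inside cluster 4 held more of the working genes than positive cells elsewhere. Against all zero cells, 641 of 9052 genes (7.08%) were higher in them and 1287 (14.2%) lower. NPPA was at 4641 CPM in them and 918 in the positive cells elsewhere, a ratio of 5.05 (4.85 to 5.27). CORIN was at 65.0 and 14.8 CPM, LRRC10 at 122 and 51.5, LMOD2 at 330 and 137, MB at 1827 and 809, and GJA5 at 132 and 46.9. SHOX2 was at 351 and 473 CPM and TBX3 at 90.7 and 161. The proliferation gene MKI67 was at 11.6 and 220 CPM, beside 138 in zero cells, and the collagen COL1A1 at 20.2 and 210, beside 122. The COL1A1 counts were concentrated: the highest cells held 186, 114 and 62 of the 760 UMIs of all positive cells. Without the highest cell, the COL1A1 ratio of all positive to zero cells was 0.926. Cycling cells made up 38.5% of the positive cells in cluster 4 and 67.8% elsewhere, doublet calls 0% and 5.17%, and the median depths were 14522 and 18948. The 32 cells of cluster 4 with under 3 NKX2-5 UMIs held LMOD2 at 623 CPM (546 to 707), above the positive cells there, CORIN at 73.2 (48.7 to 106), LRRC10 at 118 and NPPA at 3450. The part of depth, doublets and cell cycle in the differences between positive cells inside and outside the cluster was not tested.

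**Figure D5:**
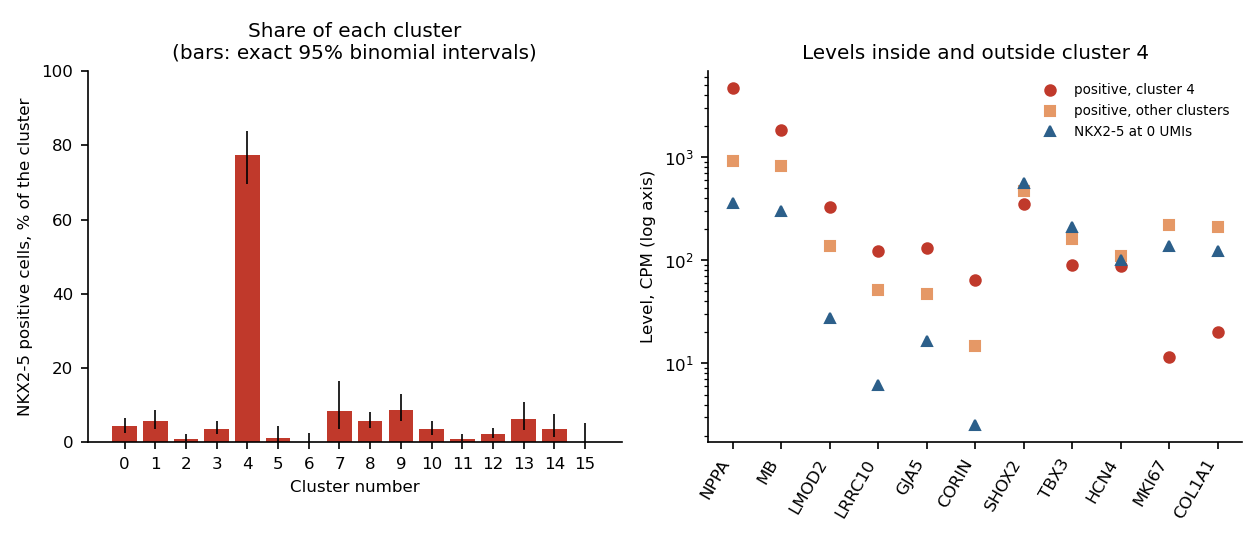
Left, the share of NKX2-5 positive cells in each of 16 clusters with exact 95% binomial intervals; cluster 4 stands at 77.3% and no other passes 8.78%. Right, levels in CPM on a log axis in positive cells of cluster 4 (red circles), positive cells of other clusters (orange squares) and zero cells (blue triangles); NPPA is at 4641, 918 and 356.

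Positive cells outside cluster 4 still differed from the same zero cells. Of 9073 genes, 405 (4.46%) were higher and 292 (3.22%) lower. All 5 other markers were higher: LRRC10 by 8.32 times (6.94 to 9.93), CORIN 5.85 (4.20 to 8.04), LMOD2 4.997 (4.51 to 5.53), MB 2.73 (2.62 to 2.84) and NPPA 2.58 (2.48 to 2.67). TBX18 was at 0.201 of the zero level (0.157 to 0.255). These cells also held more cell cycle transcripts, with 5 of 8 S phase genes (RRM2, CDC6, TYMS, GINS2 and PCNA) and 3 of 8 G2 and mitosis genes (AURKB, CDK1 and MKI67) higher, against none of either list for all positive cells. Their median depth was 18948 RNA UMIs, against 15685 in zero cells, and the part of depth in this difference was not tested. The working list had 6 of 9 measured genes higher, and the Z-disc list 4 of 12 (LRRC10, XIRP1, CSRP3 and LDB3). TCAP (ratio 1.25), NEBL (1.39), ADM (1.41) and ANKRD1 (1.30) lay within 1.5-fold outside cluster 4. TBX3 was within 1.5-fold here, at a ratio of 0.773.

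Within the 8 clusters that held at least 10 cells of each group, LMOD2 was higher in positive cells in 8 of 8, by 3.30 to 11.46 times. MB (2.11 to 5.26), LRRC10 (2.24 to 18.8), MYL3 (1.56 to 4.76), CSRP3 (1.36 to 2.52) and XIRP1 (1.63 to 4.82) also had ratios over 1 in 8 of 8. The interval lay above 1 in 6 of 8 for LRRC10, in 7 for XIRP1 and in all 8 for LMOD2, MB, MYL3 and CSRP3. NPPA was over 1 in 7 of 8, and at 0.225 (0.154 to 0.316) in cluster 3, where it was at 108 against 483 CPM and where the CD34 tag gap was widest. CORIN was over 1 in 5 of 8, with 0 UMIs in the positive cells of clusters 3, 10 and 12. GJA5 was over 1 in 7 of 8, but with an interval above 1 in 2, and TBX3 went both ways (0.365 to 1.66). Zero cells differed between clusters. Their GJA5 was at 98.3 CPM in cluster 1 and 1.67 in cluster 12, beside 74.1 in all positive cells. Their MYL3 was at 1197 CPM in cluster 3 and 36.7 in cluster 0, beside 1081 in all positive cells, and their PAM at 855 and 187. TBX18 was under 1 in 8 of 8 (0.0305 to 0.410), as were ALDH1A1, MYH11, BASP1 and CXCL12. HCN4 ranged from 0.846 to 1.36. When all positive cells were set against zero cells weighted to the same cluster makeup, the median log2 ratio of the 5 markers was -0.09 and that of the working list 0.30, and both rest on the 4 zero cells of cluster 4. With the clusters from 1000 variable genes the same weighting gave 1.85 and 0.71, and GJA5 changed sign (74.1 against 93.4 CPM).

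Positive cells were also set against 691 zero cells with at least 10 NPPA UMIs, 15.8% of all zero cells, chosen on NPPA alone and a subset of the group used above. Among positive cells, 140 (49.5%) reached that NPPA count. Of 8984 genes, 523 (5.82%) were higher and 333 (3.71%) lower in positive cells than in the NPPA-high cells. Of the 6 fibroblast markers, 4 were higher in positive cells (COL1A1, COL1A2, POSTN and DCN), with a list median log2 ratio of 0.86. COL1A1 was at 149 against 70.9 CPM, and the highest positive cells held 186, 114 and 62 of its 760 UMIs. Of 5 measured smooth muscle markers, RGS5 was higher and ACTA2, TAGLN and MYH11 were lower. Their part in the differences below was not tested. LRRC10 was at 74.1 against 3.31 CPM, a ratio of 22.4 (16.2 to 31.6), CORIN at 30.8 against 2.05, LMOD2 at 199 against 26.2 and MB at 1135 against 383. In the summed NPPA-high cells these 4 genes stayed under their levels in positive cells. They are markers chosen on these data, so this is a description. The 4 zero cells of cluster 4 held NPPA at 8661 CPM, LMOD2 at 796 (548 to 1118), MB at 3184 and LRRC10 at 72.4 (14.9 to 212). CORIN had 0 UMIs in those cells. GJA5 (17.4 CPM) and KCNA5 (13.2) in NPPA-high cells were close to their levels in all zero cells. TBX18 was at 104 CPM in NPPA-high cells and SHOX2 at 528. Their CD34 tag median was 187 (167 to 209), against 54 in positive cells. Of 8 immediate early genes, which respond fast to stimuli, 7 were higher in positive than in NPPA-high cells, and 2 against all zero cells. The 2 were ATF3 (63.9 against 35.8 CPM) and FOSB (93.7 against 59.8), and the FOSB ratio was 1.47 without its highest cell.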

How the data were processed

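The deposited matrix held whole-number UMI counts per gene and for the CD34 antibody tag, made by the authors with Cell Ranger 6.1.2 on GRCh38, per the submitters' processing notes. Other filters are not given in the sources used here. From these counts, 14829 barcodes (239181462 RNA and 2773855 tag UMIs) were gated as described, in Python with scanpy 1.11.5. The 2 libraries are 1 culture, so no test was possible: UMIs were summed per group, and ratios carry exact 95% conditional binomial intervals, levels Poisson and shares Clopper-Pearson intervals, which cover counting error only. A group at 0 was set at 3 counts over the group. The calculation was checked on simulated counts, drawn as Poisson sums per gene and group. Such counts hold no spread between cells, so the check says nothing on that spread.

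Doublets were called with Scrublet (1435 of 12119 barcodes, 11.8%, score over 0.109), kept, and removed in 1 alternative. Clusters came from 2000 variable genes without NKX2-5, CD34, mitochondrial and ribosomal protein genes, 30 principal components, 15 neighbours and Leiden resolution 1. Named genes were the 12 highest and 12 lowest ratios at 20 CPM or more, leaving out the genes of the gates, and members of gene lists, of which all 255 matched the files. The population, lists and markers were chosen with earlier results of these data known. Alternatives varied the gates, depth, floor, doublets, cycling cells and clusters. Promoters came from RefSeq. Counts were read near the 3' end, so isoforms were not separated. Some genes of the lists are not reported here by name, but are part of the counts and medians.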

Additional observations from a re-analysis of the deposited data

How the results depend on the processing

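No paired analysis was possible because the series holds 1 culture. The share of positive cells was 8.38% at 2 or more NKX2-5 UMIs and 3.24% at 5 or more. Genes higher and lower numbered 532 and 629 after thinning to 5000 UMIs, 87 and 99 with a floor of 50 CPM, 9893 and 1990 with no floor, 473 and 609 without cycling cells, and 1228 and 1034 with zero cells weighted to the cluster makeup of the positive cells. Against NPPA-high cells the floor of 50 CPM gave 141 and 103. That weighting, in which 4 zero cells of cluster 4 stand for 38.5% of the positive cells, gave 0.30 for the working list, -0.0869 for the 5 markers, which changed sign, and a CD34 tag ratio of 1 (54 against 54; 0.581 in the report's comparison). The tag ratio was 0.493 at 4000 or more CPM of TNNT2 and 0.671 outside cluster 4 with weighting, an alternative chosen after seeing the data, as was leaving out cluster 4. Weighting by clusters from 1000 variable genes, also chosen after seeing the data, gave 1.85 for the 5 markers, a tag ratio of 0.740 (54 against 73) and a log2 ratio of -0.33 for GJA5, which changed sign. At clustering resolution 0.5 the leading cluster held 29.7% of the positive cells. After thinning, the log2 ratio of 10 or more to 3 NKX2-5 UMIs was 1.53 for NPPA (1.76 unthinned) and 1 for MB (1.20).

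Of 199 named genes tried in 15 alternatives, 65 were called and 34 of these fell under 1.5-fold in some alternative, 29 of them under the first cluster weighting. Changed signs under that one were log2 -0.49 for NPPA, -0.45 for LMOD2, -0.38 for COX6A2, -0.18 for ANKRD1, -0.15 for MYL3, -0.15 for SLN, -0.087 for MB, -0.081 for TBX20 and -0.045 for CSRP3. SLN was also at -0.0020 in cells with no epithelial UMI and at -3.64 without cycling cells. TBX3 left the call in 9 alternatives, with log2 ratios from -0.58 to -0.17. Counts of 1 or 2 UMIs in sparse genes such as CORIN limit statements on single cells, and 1 culture limits all of them.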

Other observations

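Within the positive cells, counts thinned to 5000 UMIs varied unequally between genes. Of 3660 genes ranked by variance over mean, NPPA was in place 2 (29.3), MYL3 in place 12 (10.2) and MB in place 21 (6.93), beside MALAT1 in place 1. DLK1, an imprinted surface protein of progenitors, was in place 4 at a mean of 0.219 UMIs. It was seen in 28 positive cells, and 1 of them held 249 of its 363 UMIs. DLK1 was at 71.3 CPM in positive and 22.9 in zero cells, a ratio of 3.11 that became 0.978 without that cell. COL1A1, in place 7, had 186 of 760 UMIs in 1 cell, and the matrix protein MGP, in place 15, had 98 of 419. Metallothioneins, which bind zinc and copper, differed by less than 1.5-fold in 4 of 4 measured genes (MT1E 224 against 241 CPM, MT2A 486 against 463), and so did the 5 measured Notch genes (JAG1 99.8 against 109).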
